A study of Mus musculus with 7 samples.

Results

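The population described here is coarse cluster 5, the cells that the authors' coarsest deposited Louvain clustering (resolution 0.2) numbered 5. The members were chosen by that cluster number, which the authors derived from gene expression, and the cluster was picked for its higher measured share of cells in Kdm6b cKO uterus. Its share by genotype is therefore given below as a description, with no test. It held 6399 of 107443 cells (5.96%) and was the cluster of rank 6 by size among 19. Of these cells, 3996 came from cKO tissue, which made 7.52% of 53170 cKO cells, and 2403 came from control tissue, which made 4.43% of 54273 control cells. The annotation holds no expression value of any gene, so the population could not be set against any marker, carries no cell type name here, and Kdm6b itself was not examined.

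The tissue was mouse uterus, dissected, frozen, dissociated and profiled by droplet single-cell RNA sequencing. Specimens came from Kdm6b cKO mice (cKO usually stands for conditional knockout) and from control mice whose Cre driver and strain the sources used here do not give. They came from 2 sites at numbered gestation days: inter-implantation tissue at days 5, 8, 12, 14, 16 and 18, and the myometrium/endometrium of implantation sites at days 12, 14, 16 and 18. A further inter-implantation pair, numbered day 0, came from non-pregnant mice that received 0.2 mg of progesterone a day for 3 days. Non-pregnant and day 5 specimens each pooled the uteri of 2 mice.

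KDM6B is an enzyme that removes the repressive methyl mark placed on histone H3 by Polycomb complexes, and so permits silent genes to be used. The uterine wall holds smooth muscle (the myometrium) around an inner endometrium of stroma and epithelium, with vessels and immune cells throughout. Implantation turns the stroma beneath each embryo into decidua, while the stretches of uterus between embryos, the inter-implantation sites, hold no embryo. The series title places the study in the control of gestation length, and the design sets cKO against control tissue of the same site and day.

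Cells had been tagged by specimen and run in 7 pools over 3 experimental batches, with 28 specimens in all, 14 of each genotype. Every specimen had a partner of the other genotype at the same site, day and batch, giving 14 pairs, 13 of them pregnant (6 inter-implantation, 7 myometrium/endometrium). Specimens had 1769 to 5720 cells, of which 70 to 675 (median 138.5) belonged to coarse cluster 5. At inter-implantation sites each day had 1 specimen per genotype. At myometrium/endometrium sites, day 12 had 3 per genotype and day 18 had 2. Nothing ties the 2 sites to different mice, so p-values below measure the spread between these specimens. Batch 1 held only myometrium/endometrium specimens. Of cluster 5 cells, 170 (2.66%) carried a barcode found in another pool, and of all cells 2681 (2.50%) did; in 10 cluster 5 cells the other barcode was in the cluster as well.

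The share of coarse cluster 5 was higher in the cKO specimen in 12 of 13 pregnant pairs, by a mean log2 ratio of 0.67 ± 0.81 (SD, n = 13 pairs). The gap was widest in inter-implantation tissue on days 14 and 16. There, cluster 5 took 13.7% of cKO cells and 3.16% of control cells on day 14, and 14.2% of cKO cells and 3.03% of control cells on day 16. On day 18 the shares were 6.83% in cKO and 3.00% in control inter-implantation tissue. The cKO values were 4.34, 4.68 and 2.27 times the control values on these 3 days, and the exact 95% binomial intervals of the paired specimens did not overlap. These intervals cover the counting of cells within a specimen and not the spread between specimens, so they are no test of genotype.

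Earlier in gestation the inter-implantation pairs lay closer together. Day 5 had 3.29% in cKO and 2.18% in control tissue, and day 8 had 2.36% in cKO and 1.99% in control tissue. On day 12 both genotypes were high, at 9.13% in cKO and 7.63% in control tissue. The intervals overlapped in each of these 3 pairs. The non-pregnant pair ran the other way, with 1.68% in cKO and 2.78% in control tissue and no overlap of the intervals (upper cKO bound 2.11%, lower control bound 2.29%). Days 5 and 8 were run in batch 3 and days 12 to 18 in batch 2, so the step between days 8 and 12 and the change of batch cannot be told apart.

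In myometrium/endometrium tissue 6 of 7 pairs were higher in cKO, by less. Day 14 had the largest gap, with 12.01% in cKO and 5.41% in control tissue (a ratio of 2.22). The 3 day 12 pairs had 12.6%, 8.10% and 5.82% in cKO specimens of batches 1, 2 and 3, against 11.5%, 12.4% and 4.63% in their control partners. The batch 2 pair was the one pregnant pair with the lower value in cKO (ratio 0.653). Day 16 had 3.17% in cKO and 2.67% in control tissue. The day 18 pairs had 3.38% and 4.15% in cKO specimens of batches 1 and 2, against 3.21% and 2.50% in control specimens.

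**Figure D1:**
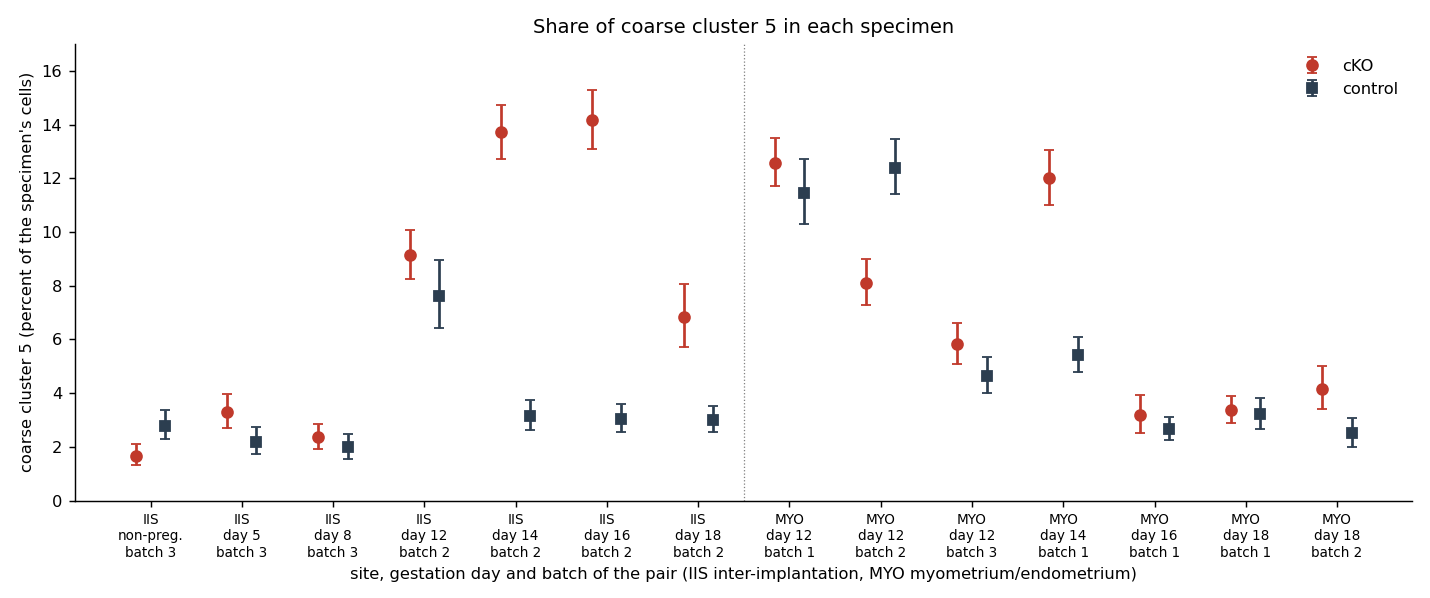
Share of coarse cluster 5 among the cells of each specimen (vertical axis, percent), by site, day and batch (horizontal axis), with cKO as circles and control as squares; bars are exact 95% binomial intervals. The inter-implantation cKO specimens of days 14 and 16 stand at 13.7% and 14.2%, above control partners at 3.16% and 3.03%, while both genotypes are at or below 4.15% in the day 16 and day 18 myometrium/endometrium pairs.

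By site, the mean log2 ratio of cKO over control shares was 1.11 ± 0.89 over 6 inter-implantation pairs and 0.29 ± 0.55 over 7 myometrium/endometrium pairs (SD). The intervals of the paired specimens overlapped in 7 of 13 pregnant pairs, 3 inter-implantation and 4 myometrium/endometrium. The pairs without overlap included the day 12 batch 2 myometrium/endometrium pair, which was lower in cKO. Overlap was not counted for other coarse clusters. By batch, the mean log2 ratio was 0.40 in batch 1 (4 pairs), 0.98 in batch 2 (6 pairs) and 0.39 in batch 3 (3 pairs). Without the inter-implantation pairs of days 14 and 16 it was 0.39 ± 0.51, with 10 of 11 pairs higher in cKO. Each specimen was spread over several pools, and its highest pool share was a median of 1.18 times its lowest. The widest such spread was in the day 18 cKO inter-implantation specimen, at 4.64% to 8.73%. Intervals cover counting error only, and a share can be raised by more cells of a cluster or by fewer cells of the others.

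The authors' finer clusterings divide the population. At the finest deposited clustering (resolution 2, 61 clusters in all), coarse cluster 5 split mainly into fine cluster 9 (3441 cells, 53.8% of it), fine cluster 25 (1472 cells, 23.0%) and fine cluster 41 (594 cells, 9.28%). Fine clusters 27 (384 cells), 20 (255 cells) and 48 (153 cells) gave 6.001%, 3.98% and 2.39%, and 6 others together gave 100 cells (1.56%). Fine clusters 25, 9 and 41 belonged almost wholly to coarse cluster 5, which held 100%, 96.0% and 94.3% of their cells. It held only 27% of fine cluster 27, 13.6% of fine cluster 20 and 47.7% of fine cluster 48. At resolution 0.4 the same 6399 cells fell mainly into clusters 9 (49.5%) and 14 (28.8%). In the region of the 2-dimensional embedding that holds the middle of the population, 75.4% of cells were of coarse cluster 5 and 23.5% of coarse cluster 1.

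Fine cluster 9 carried most of the difference between genotypes. Counting its cells within coarse cluster 5, it took 4.47 ± 3.45% of cKO cells and 2.20 ± 2.26% of control cells (SD, n = 13 pregnant specimens each), and was higher in cKO in 12 of 13 pairs. It made up 83.3% of the summed cKO minus control difference of coarse cluster 5 over those pairs, and 91.1% of it over the inter-implantation pairs of days 12 to 18. Over the myometrium/endometrium pairs it made up 66.5%, and fine cluster 25 made up 26.6%. That sum mixes pairs of opposite sign. The day 14 pair differed by 6.60 points, of which fine clusters 9 and 25 gave 4.37 and 1.45. The day 12 batch 2 pair differed by -4.30 points, of which they gave -3.08 and -1.09. The other pairs of this site differed by 0.162 to 1.65 points. With its cells taken out, the mean log2 ratio of the remaining cluster was 0.28 ± 0.53, with 7 of 13 pairs higher in cKO.

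The specimen values show where this came about. In inter-implantation tissue fine cluster 9 took 4.44% of cKO and 2.26% of control cells on day 12, and 9.72% of cKO and 0.996% of control cells on day 14. On day 16 it took 10.5% of cKO and 0.637% of control cells, and on day 18 it took 4.65% of cKO and 0.804% of control cells. On days 5 and 8 cKO specimens had 0.514% and 0.698%, and their control partners 0.465% and 0.456%. The 4 later cKO specimens thus lay above all 6 control inter-implantation specimens, and the 2 early ones did not.

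In myometrium/endometrium tissue fine cluster 9 was high in both genotypes on day 12, at 7.36%, 4.43% and 2.88% in cKO specimens of batches 1, 2 and 3, against 5.98%, 7.51% and 2.69% in control specimens. On day 14 it took 8.11% of cKO and 3.73% of control cells. It was lower later, at 1.80% in cKO and 0.857% in control tissue on day 16. On day 18 it took 1.61% and 1.34% of cKO cells in batches 1 and 2, against 1.34% and 0.824% of control cells. The genotypes overlapped at this site.

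The other subsets held fewer cells and differed by fewer percentage points, in both directions. Fine cluster 25 took 1.60 ± 0.87% of cKO cells and 1.32 ± 1.16% of control cells, higher in cKO in 9 of 13 pairs. Fine cluster 41 took 0.492 ± 0.181% of cKO cells and 0.646 ± 0.284% of control cells, higher in cKO in 5 of 13 pairs. Its largest gap was on day 18 in inter-implantation tissue, at 0.267% of cKO and 1.29% of control cells. The cells of fine cluster 48 within coarse cluster 5 were higher in cKO in 11 of 13 pairs, at 0.214 ± 0.187% of cKO and 0.0925 ± 0.102% of control cells. The fine cluster 20 cells within coarse cluster 5, 13.6% of that fine cluster, were higher in cKO in all 6 pregnant inter-implantation pairs. There they made 0.374 ± 0.280% of cKO and 0.138 ± 0.116% of control cells. They were higher in cKO in 2 of 7 myometrium/endometrium pairs. The rest of fine cluster 20 was not compared between genotypes. Some of these pairs rested on few cells. Within coarse cluster 5, fine cluster 20 had 1 cKO and 0 control cells in inter-implantation tissue on day 5, and 3 and 0 on day 8. On day 18 it had 7 and 11, from specimens of 1873 and 4726 cells. In myometrium/endometrium tissue fine cluster 48 had 2 cells of coarse cluster 5 in each genotype on day 14, and 1 cKO and 2 control cells on day 16.

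The make-up of coarse cluster 5 therefore varied between specimens. In inter-implantation tissue fine cluster 9 formed 48.6%, 70.9%, 74.2% and 68.0% of the cluster in cKO specimens of days 12, 14, 16 and 18, against 29.6%, 31.5%, 21.1% and 26.8% in control specimens. Fine cluster 41 formed 3.98%, 2.08%, 1.95% and 3.91% in those cKO specimens, against 2.96%, 17.7%, 24.8% and 43.0% in the control specimens. On days 5 and 8 the largest subset in cKO was fine cluster 25, at 56.0% and 35.7% of the cluster, against 50.7% and 33.8% in control specimens. Day 12 and day 14 myometrium/endometrium specimens had fine cluster 9 in the majority or close to it in both genotypes, between 49.5% and 69.0%.

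**Figure D2:**
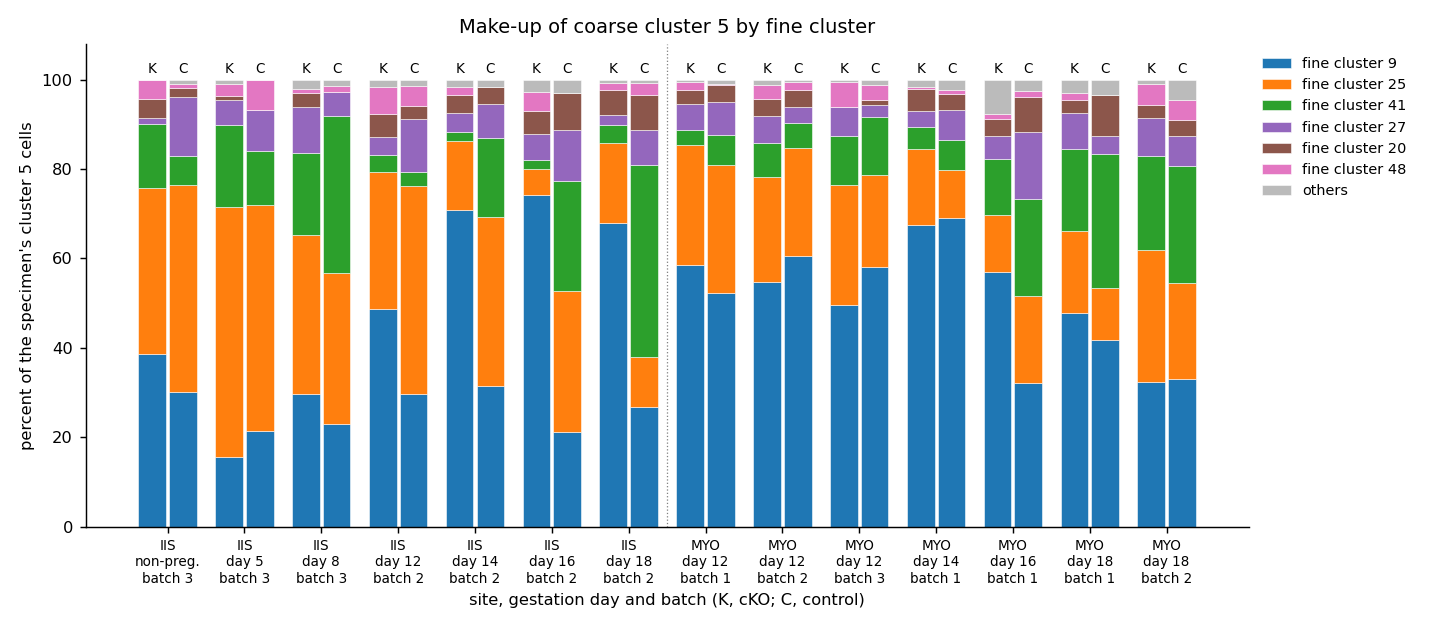
Make-up of coarse cluster 5 in each specimen (vertical axis, percent of the specimen's cluster 5 cells), with the cKO bar (K) left of the control bar (C) for each site, day and batch; colours are the fine clusters (IIS, inter-implantation; MYO, myometrium/endometrium). Fine cluster 9 fills 48.6% to 74.2% of the cKO bars of inter-implantation days 12 to 18 and 21.1% to 31.5% of their control bars, while in myometrium/endometrium day 12 and 14 bars it fills 49.5% to 69.0% in both genotypes.

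Within the cluster, the share of fine cluster 9 was higher in cKO in 8 of 13 pregnant pairs, with a mean logit difference of 0.82 ± 1.28 (SD). The share of fine cluster 41 was lower in cKO in 10 of 13 pairs, with a mean logit difference of -1.16 ± 1.62. Fine cluster 25 had a mean logit difference of -0.21 ± 1.10. Cells added to fine cluster 9 alone would move these shares as well as the size of the cluster, for which it was chosen, so they are descriptions and no test of them is given. Among cells between the quartiles of the cluster's UMI counts (2939.5 to 5842 UMIs), the mean difference for fine cluster 41 was -2.07, with 1 of 13 pairs higher in cKO.

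The fine clusters differed in depth, ribosomal percentage and phase call. These measures are given for their cells within coarse cluster 5 only. UMIs (unique molecular identifiers) count captured RNA molecules. Fine cluster 9 had a median of 3671 UMIs per cell, fine cluster 25 had 4940 and fine cluster 41 had 6439. Fine clusters 27 and 48 were shallow, at 1274 and 1465 UMIs, and fine cluster 20 was deep, at 13218. The whole of coarse cluster 5 had a median of 4124 UMIs and 1529 genes per cell, against 6328 UMIs and 2035 genes in all other cells. The clusters were made from the same cells' expression, so these values are descriptions with no test.

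The ribosomal percentage is the authors' column for the part of a cell's RNA from ribosomal genes, which genes they counted not being stated. It was 21.2% in fine cluster 9, 29.0% in fine cluster 25 and 21.8% in fine cluster 41 (medians over cells). Fine cluster 27 had the lowest value, 13.6%, together with a mitochondrial percentage of 5.97%, and fine cluster 48 the highest, 37.5%. Coarse cluster 5 as a whole had 22.9% ribosomal and 1.96% mitochondrial, against 21.6% and 2.69% in all other cells.

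Phase is the authors' call of G1, S or G2M from scores of cell cycle genes. Fine cluster 9 had 9.47% of cells called S and 6.02% called G2M. Fine cluster 25 had 7.00% called S and 16.6% called G2M, the higher G2M share of the 3 main subsets, and fine cluster 41 had 8.75% and 4.71%. In coarse cluster 5 as a whole 9.28% were called S and 9.27% G2M, against 9.75% and 13.8% of all other cells. These calls differed between groups of cells of different depth. In groups of cluster 5 cells cut at the UMI quartiles, from fewest to most UMIs, 16.8%, 8.38%, 5.75% and 6.25% of cells were called S, and 15.3%, 5.25%, 4% and 12.6% were called G2M. The groups also differed in make-up. Fine clusters 27 and 48 formed 16.9% and 9.25% of the group with the fewest UMIs, and 0.25% and 0.0625% of the next. They had 16.1% and 23.5% of cells called S, and 19.3% and 19.0% called G2M. The parts of depth and make-up were not tested. All phase calls are therefore given as calls and not read as dividing cells.

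The contrasts of depth and ribosomal percentage between fine clusters 9 and 25 were also seen within specimens. In the 21 specimens with at least 20 cells of each, fine cluster 9 had the lower median UMI count in 21 of 21, at 3584 ± 405 against 4888 ± 636 in fine cluster 25 (SD). It had the lower ribosomal percentage in 21 of 21 as well, at 22.9 ± 5.41% against 29.2 ± 6.07%. The percent called G2M was 7.03 ± 3.83% in fine cluster 9 and 15.6 ± 5.68% in fine cluster 25, higher in fine cluster 9 in 2 of 21. The percent called S was 8.75 ± 4.01% in fine cluster 9 and 7.16 ± 5.30% in fine cluster 25, higher in fine cluster 9 in 11 of 21. Among cells between the UMI quartiles, where their median depths were 3968 and 4467 UMIs, 4.04% of fine cluster 9 cells and 7.02% of fine cluster 25 cells were called G2M, and their median ribosomal percentages were 21.2% and 29.9%.

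**Figure D3:**
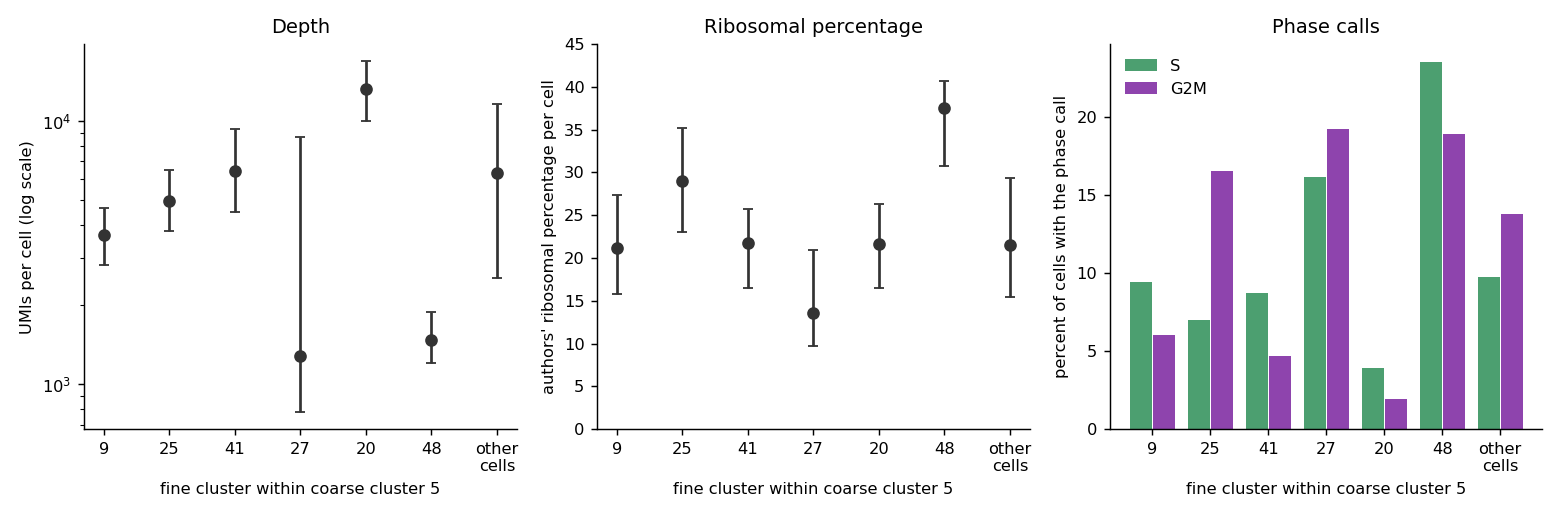
Median UMIs per cell (left, log scale), median ribosomal percentage (middle) and percent of cells called S or G2M (right) for the fine clusters within coarse cluster 5 and for all other cells of the series; bars in the left and middle panels span the quartiles over cells. Fine cluster 9 has fewer UMIs (3671 against 4940), a lower ribosomal percentage (21.2% against 29.0%) and fewer G2M calls (6.02% against 16.6%) than fine cluster 25.

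The depth of coarse cluster 5 varied less between batches than that of all cells. Its median was 4421, 3867 and 3956 UMIs per cell in batches 1, 2 and 3, against 3670, 8082 and 6154 for all cells of those batches. Its ribosomal percentage followed the batch. Specimen medians lay between 13.3% and 18.2% in batch 1 and between 23.0% and 32.4% in the pregnant specimens of batches 2 and 3, with no overlap. The other cells of the same specimens did likewise, at 13.4% to 16.5% in batch 1 and 20.2% to 35.0% in batches 2 and 3, so values are compared below only within pairs.

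Within pairs, no cell measure of coarse cluster 5 passed the test between genotypes, an exact two-sided sign-flip permutation test over pairs at an adjusted p (Benjamini-Hochberg) of 0.05. The measures pool all fine clusters, which differ in depth, ribosomal percentage and G2M calls, so a change of make-up would move them. They are thus not independent of the size for which the cluster was chosen, and the part of make-up was not tested. Median UMIs per specimen were 4165 ± 501 in cKO and 4343 ± 752 in control specimens (SD, n = 13 each; exact sign-flip test, adjusted p = 0.735). In inter-implantation tissue of days 14, 16 and 18 the cKO medians were 3564, 3253 and 3368 UMIs, all below the control medians of 4308, 5401 and 5549. On days 5, 8 and 12 they were 4400, 4246 and 4657 in cKO, all above 2909, 4030 and 3781 in control specimens. Fine cluster 9, the shallower of the main subsets, formed 68.0% to 74.2% of the cKO cluster on the 3 later days; its part in the lower medians was not tested. All other cells of these pairs had medians of 8699, 8224 and 6632 UMIs in cKO on days 14, 16 and 18, against 6667, 9418 and 9161 in control specimens. On days 5, 8 and 12 they had 5665, 7079 and 10805 UMIs in cKO, against 3968, 5499 and 4943 in control specimens. The other cells thus differed in the same direction as the cluster in 5 of 6 pairs, with day 14 the exception.

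The median ribosomal percentage was 23.9 ± 5.80% in cKO and 23.5 ± 6.28% in control specimens, with 7 of 13 pairs higher in cKO (exact sign-flip test, adjusted p = 0.563). The paired difference was 0.43 ± 1.30 percentage points, small beside the gap between batches. The percent of cells called S was 9.21 ± 3.86% in cKO and 8.02 ± 5.09% in control specimens (exact test, adjusted p = 0.6002). The percent called G2M was 10.7 ± 4.61% in cKO and 8.30 ± 4.35% in control specimens. It was the higher of the pair in cKO 9 of 13 times, with an exact p of 0.0366 that did not pass after adjustment (adjusted p = 0.126). Genes per cell and the mitochondrial percentage did not pass either (exact tests, adjusted p = 0.993 and 0.563). The adjustment ran over 9 measures, these 6 and the 3 fine cluster shares described above. Those 3 shares are tied to the size for which the cluster was chosen, so the adjusted p-values of these exact tests depend partly on them. An adjustment over the 6 alone was not run. Of the 6, 1 had an unadjusted p under 0.05, and by permutation within site and day, without the pairs, none did (0.0600 for G2M calls).

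**Figure D4:**
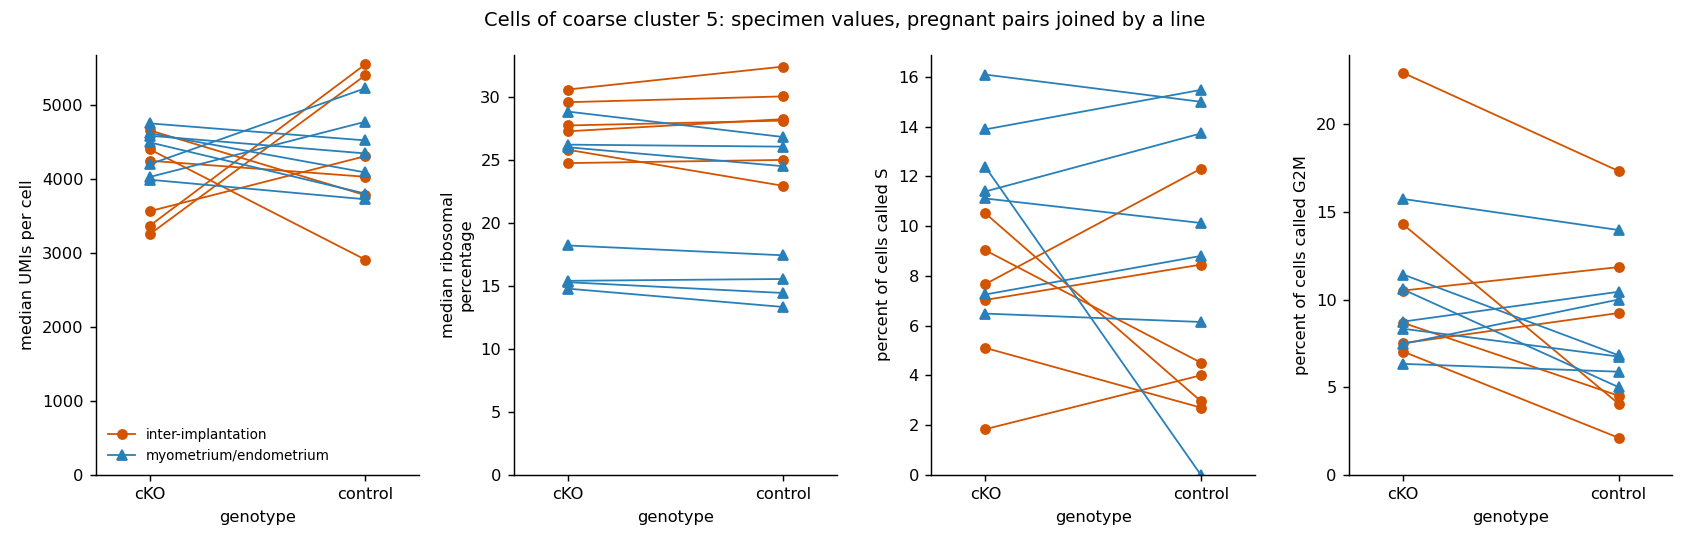
Specimen values of coarse cluster 5 cells in the 13 pregnant pairs: median UMIs per cell, median ribosomal percentage, and percent of cells called S and G2M (vertical axes), with cKO left of control and a line joining each pair; circles are inter-implantation and triangles myometrium/endometrium pairs. Lines cross in the panels of UMIs and S calls, and the ribosomal panel splits into 4 low pairs of batch 1 (13.3% to 18.2%) and 9 higher pairs.

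To see whether these differences set the cluster apart, the genotype difference in all other cells of each pair was subtracted. No measure passed (exact sign-flip tests over 13 pairs, adjusted over 6 measures; the lowest adjusted p was 0.544). For G2M calls the remaining difference was 1.03 ± 5.96 percentage points, and for the ribosomal percentage 0.51 ± 2.60 points. With 13 pairs the smallest p this test can give is 0.000244.

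No site difference of the shares passed the test. Over days 12 to 18, with day, batch and genotype in the fit, the log2 difference of coarse cluster 5 between inter-implantation and myometrium/endometrium specimens was 0.24 with a standard error of 0.41 (edgeR quasi-likelihood test, adjusted p = 0.680, n = 22 specimens). In that comparison 0 of 17 coarse clusters passed (0%), 5 had an unadjusted p under 0.05 (29.4%), while edgeR with TMM factors called 1, DESeq2 1 and limma 0. The log2 differences of fine clusters 9, 25 and 41 were 0.18, 0.15 and -0.40, and none passed among 0 of 50 fine clusters (0%; 6, or 12%, at an unadjusted p under 0.05; DESeq2 2, limma 0). Coarse cluster 5 gave 0.71 in cKO specimens alone, a fit added after the values were seen, and -0.22 in control specimens alone, and neither passed (edgeR, adjusted p = 0.449 and 0.614).

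Over gestation, the share fell in myometrium/endometrium tissue, as a fitted slope over days 12 to 18. The specimens of days 16 and 18 lay close together, and in batch 1 those of day 18 were the higher ones in both genotypes. The slope of coarse cluster 5 was -0.32 log2 units per day with a standard error of 0.050 (edgeR, genotype and batch in the fit, adjusted p = 0.000182, n = 14 specimens). It was 1 of 3 coarse clusters called among 17 (17.6%). Fine clusters 9 and 25 fell by 0.42 and 0.39 log2 units per day with standard errors of 0.064 and 0.072 (edgeR, adjusted p = 0.000145 and 0.000915), and 13 of 48 fine clusters were called (27.1%). Fine cluster 41 had a slope of 0.07 that did not pass (edgeR, adjusted p = 0.363). The fall of the coarse cluster passed in each of the 14 fits that left out a specimen. Within batch 1 the slope was -0.35 (edgeR, adjusted p = 0.000910), and within batch 2 it was -0.27 over 4 specimens and did not pass (adjusted p = 0.315). In cKO specimens alone it was -0.28 and did not pass (edgeR, adjusted p = 0.170). In the 7 control specimens alone it was -0.35 with a standard error of 0.059 and passed (edgeR, adjusted p = 4.06e-06), as did 3 of 17 coarse clusters. The difference between genotypes was not tested. The control fit had a smaller p than the fit of all 14 specimens at a similar slope and standard error, so it is not read as the stronger result.

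In inter-implantation tissue the slope of coarse cluster 5 did not pass, at -0.13 log2 units per day with a standard error of 0.083 (edgeR, adjusted p = 0.219, n = 12 specimens), where 1 of 18 coarse clusters was called (5.56%). The slope is taken within batches. Without the batch term it was 0.11 (edgeR, adjusted p = 0.118), and 20 of 48 fine clusters were called. The slope of fine cluster 9 was then 0.21 (edgeR, adjusted p = 0.0498), against -0.09 with the term (adjusted p = 0.620). Fine cluster 25 fell by 0.36 log2 units per day with a standard error of 0.091 (edgeR, adjusted p = 0.0185), 1 of 5 fine clusters called among 48 (10.4%). That call was lost without the control specimen of day 12 (adjusted p = 0.0879), without that of day 18 (adjusted p = 0.120) or without the batch term (a slope of -0.04, adjusted p = 0.770). In cKO specimens alone its slope was -0.26 (edgeR, adjusted p = 0.335) and in control specimens alone -0.47 (adjusted p = 0.00379), a difference that was not tested. The fit of the 6 control specimens called 23 of 48 fine clusters, so its pass is not particular to fine cluster 25. The fit of the 6 cKO specimens called 0 of 47.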

How the data were processed

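Per the labels' protocols, uterine tissue was minced, frozen, thawed and digested, hashing oligonucleotides marked the cells by specimen, and pools went through a droplet 3' kit and sequencing to 30000 reads for each cell. Seurat, Cell Ranger and mm10 are named, without versions, per the submitters' processing notes. The authors deposited 1 annotation row per cell, with UMI, gene and hashing counts not normalized (per the file headers), a mitochondrial and a ribosomal percent, S and G2M score columns with a phase call, Louvain clusters at 9 resolutions, and genotype (KO and WT, called cKO and control here), site, day and batch. The score values themselves were not used. How the authors filtered cells, removed doublets and assigned specimens is not stated; no doublets were called again, and without gene counts cells could not be thinned to equal depth. The protocol names 10 pools; the 7 pools used here held 13403 to 17111 cells each, and the others were not analysed here.

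Specimens were the replicates, with pools of a specimen summed. Cells per cluster and specimen were tested with edgeR 4.0.16 (quasi-likelihood, specimen total as library size, clusters with a mean of at least 10 cells, Benjamini-Hochberg over all clusters of a resolution), with DESeq2 1.42.0 and limma 3.58.1 as alternatives. Cell measures were tested by exact sign-flip permutation over pairs of the same site, day and batch, which come from those labels. Both were also run on simulated data, with site changes and paired differences (in SD units) larger than those printed above. Those runs do not measure the power to find differences of the printed size. Share intervals are exact Clopper-Pearson at 95%. Named were coarse cluster 5 and each fine cluster with at least 1% of its cells. The population, the clusters and the tests were chosen with earlier results of these data known.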

Additional observations from a re-analysis of the deposited data

Results flagged for a closer look

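Among 40 groups of 6 or 7 specimens, looked at for a specimen far from the others of its site and genotype, 1 was found, where chance alone would give about 1 in 20 groups. The groups were different measures of the same sets of specimens, so they were not independent of each other. The share of coarse cluster 5 in the control inter-implantation specimen of day 12 (batch 2) was 7.63%, while the nearest of the other 5 pregnant control inter-implantation specimens was at 3.16%. The gap was 0.793 of the group's whole range. That specimen also had the fewest cells of all, 1769, and its other cells had a median of 4943 UMIs, against 6667 to 9418 in the other control inter-implantation specimens of its batch; their part in the value was not tested.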

How the results depend on the processing

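Of 625 values recomputed under another setting, 571 were labelled as unchanged. For tested values this meant the same direction and the same side of the threshold. For the 21 values of the untested genotype share it meant the same direction and a distance from the main value below its SD over pairs. Many of the 571 were refits of results that did not pass, and some were of the fine cluster shares described without a test. The mean log2 ratio of the coarse cluster 5 share between genotypes ran from 0.54 to 0.77 with a pair left out, and was 1.06 with cluster 9 of resolution 0.4 as the members and 0.28 without fine cluster 9. The fits of cKO specimens alone, of single batches, without days 14 and 16 and without fine cluster 9 were chosen after seeing the data. Leaving out the pairing (permutation within site and day, no replicate block) left the G2M difference at 2.43 points with an exact adjusted p of 0.180 and changed no call.

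Site difference: with a specimen left out, fine cluster 9 ran from -0.13 to 0.86 and fine cluster 25 from -0.15 to 0.44. In control specimens alone coarse cluster 5, fine cluster 9 and fine cluster 41 were at -0.22, -0.97 and 0.26. Fine cluster 9 was at -0.18 without batch 1 and -0.25 in batch 2 alone. Without the batch term 11 of 50 fine and 4 of 17 coarse clusters were called.

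Slopes: in inter-implantation tissue the lack of a batch term gave 0.11 for coarse cluster 5, 0.21 for fine cluster 9 and 8 of 18 coarse and 20 of 48 fine clusters called. Fine cluster 9 was at 0.043 in cKO specimens alone and 0.047 in batch 3 alone. Fine cluster 41 was at -0.071 in cKO and 0.37 in control specimens alone (edgeR, adjusted p = 0.0173). That control fit, over 6 specimens, called 23 of 48 fine clusters, and the cKO fit 0 of 47. With a specimen left out, fine cluster 25 ran from -0.45 to -0.29, and in batch 3 alone it was -0.31 (edgeR, adjusted p = 0.0541). In myometrium/endometrium tissue coarse cluster 5 was at -0.28 in cKO specimens alone and -0.27 in batch 2 alone, neither passing, and within batch 2 fine clusters 9 and 25 were at -0.41 and -0.26 (edgeR, adjusted p = 0.122 each).

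Differences between genotypes within coarse cluster 5: cells between the UMI quartiles gave 0.020 points for the mitochondrial and -0.15 for the ribosomal percentage, and -2.07 for the logit share of fine cluster 41, a description; set against other cells they gave 0.0012 for log2 UMIs and 0.019 for log2 genes. Log2 genes were at -0.017 in cells of at least 1000 UMIs, -0.0013 with the non-pregnant pair and -0.033 in inter-implantation pairs, and with a pair left out ran from -0.031 to 0.041; log2 UMIs then ran from -0.10 to 0.0069 and fine cluster 25 from -0.29 to 0.012. Inter-implantation pairs alone gave -0.17 points of ribosomal percentage, and -0.51 against other cells. Myometrium/endometrium pairs alone gave 0.015 for log2 UMIs, 0.054 points for the mitochondrial percentage and 0.24 for fine cluster 25, and against other cells 0.13, 0.10 and 0.046 for log2 UMIs, log2 genes and the mitochondrial percentage. The cause of none of these was tested. Specimens had as few as 70 cluster 5 cells, which limits the precision of the fine cluster shares.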
